A study of Mus musculus with 7 samples.

Results

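The cytochrome P450 3A (Cyp3a) genes of mouse liver were followed here in the presence and absence of Rbpj, the DNA-binding factor of the Notch pathway. The members were 8 genes chosen by name, Cyp3a11, Cyp3a13, Cyp3a16, Cyp3a25, Cyp3a41a, Cyp3a44, Cyp3a57 and Cyp3a59. On the array, 10 probes carried the name of 7 of them. Cyp3a41a had no probe of its own name, but a probe named Cyp3a41b lists the transcripts of both copies and is given beside the members. Of the 18755 genes that could be tested on these arrays, 6 were members. Cyp3a44 was too dim to be tested.

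RNA from whole liver of 7 mice of the C57BL/6J strain, all 4 weeks old and untreated, was hybridised to 1-colour Agilent 8x60K arrays. The 4 Rbpj+/+ mice (Rbpj +/+_1155, +/+_1156, +/+_1024 and +/+_991) were AlfpCre- with both Rbpj alleles floxed and showed no cholestasis. The 3 Rbpj-/- mice (Rbpj -/-_N3, -/-_N5 and -/-_2866) were AlfpCre+ on the same floxed alleles and were cholestatic. The floxed alleles were thus common to all mice, and only the Rbpj-/- mice carried the Cre transgene. This transgene is driven by albumin and alpha-fetoprotein regulatory sequences, which act in the precursors of both hepatocytes and cholangiocytes, so other liver cells keep the gene. All 7 arrays lay on 1 slide, the Rbpj+/+ arrays in the first row and the Rbpj-/- arrays in the second, so that row and genotype cannot be told apart.

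Cyp3a enzymes are haem proteins of the hepatocyte endoplasmic reticulum which oxidise a wide range of drugs, steroids and bile acids. Hydroxylation by Cyp3a enzymes makes toxic bile acids such as lithocholic acid more soluble and easier to excrete. Transcription of the family is driven by the nuclear receptors PXR (Nr1i2) and CAR (Nr1i3), each bound to DNA together with RXR alpha (Rxra). PXR senses foreign compounds and some bile acids. Cyp3a11 is the main drug- and PXR-responsive form of adult mouse liver, Cyp3a13 is also prominent in the intestine, Cyp3a16 is a fetal and neonatal form, and Cyp3a41 and Cyp3a44 are female-predominant in adult liver. Cyp3a25, Cyp3a57 and Cyp3a59 are less well described paralogs.

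The probes of the family differ in how much they can separate its members, and 3 of them lie in coding sequence and are shown for that reason. The second probe of Cyp3a11 is listed by the array's own annotation for Cyp3a11, Cyp3a41a, Cyp3a41b and Cyp3a44 together. Its signal can therefore come from any of these transcripts, and their parts in it were not measured. The first probe of Cyp3a59 covers the codons of the conserved haem-binding motif, which are in capitals. The probe of Cyp3a57 ends with the stop codon, also in capitals.
Cyp3a11 second probe, shared: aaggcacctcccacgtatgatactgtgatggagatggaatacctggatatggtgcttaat
Cyp3a59 first probe: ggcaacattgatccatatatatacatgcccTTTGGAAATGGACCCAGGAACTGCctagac
Cyp3a57: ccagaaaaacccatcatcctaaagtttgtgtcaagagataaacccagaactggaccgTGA

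The closest pair of different probes was that of Cyp3a44 and Cyp3a41b, which matched at 86.8% of 53 overlapping bases with 7 mismatches. All 7 lie in the stretch of 30 bases below, where they are in capitals. No other pair of probes exceeded 52.3% identity without gaps. These values compare probes only with each other. The probes were not compared with the transcripts of other members, so the values cannot show whether a probe reads a single gene.
Cyp3a44 probe, positions 14 to 43: cagtgtctgtGcaAgttaAcatAtaatACG
Cyp3a41b probe, positions 21 to 50: cagtgtctgtAcaGgttaTcatCtaatTAA

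On mm9, the build of the array design, the probes of 6 members and of Cyp3a41b fell into a stretch of 773223 bases of chromosome 5. The Cyp3a57 probe lay at chr5:146151322-146151381 on the plus strand and the Cyp3a16 probe at chr5:146197274-146197333 on the minus strand. The Cyp3a41b probe at chr5:146319794-146319853, the Cyp3a44 probe at chr5:146585717-146585776 and the first Cyp3a11 probe at chr5:146666237-146666296 followed, all on the minus strand. Cyp3a25 had its probe at chr5:146788879-146788938 on the minus strand and Cyp3a59 its first probe at chr5:146920638-146920697 on the plus strand. Cyp3a13 stood apart, with its first probe at chr5:138335412-138335471, 7815851 bases from the cluster. Exon annotation of this build was not used here.

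The promoters of the family fall into groups by sequence. Windows from 250 bases before to 50 after the start site were taken from RefSeq (GRCm38.p6) for all 8 members and Cyp3a41b, using the first window listed where a gene has more than 1. Cyp3a41a and Cyp3a41b were identical at 98.3% of bases, Cyp3a16 and Cyp3a44 at 94.7%, and Cyp3a11 was closest to Cyp3a16 at 78.3%. Cyp3a25, Cyp3a57 and Cyp3a59 formed a second group with 90.3% to 96.0% identity. The windows of Cyp3a11, Cyp3a16 and Cyp3a25 are printed, with motif matches in capitals. They belong to the brightest member of the first group, its fetal form and a member of the second group.
Cyp3a11, chr5:145879805-145880104, minus strand: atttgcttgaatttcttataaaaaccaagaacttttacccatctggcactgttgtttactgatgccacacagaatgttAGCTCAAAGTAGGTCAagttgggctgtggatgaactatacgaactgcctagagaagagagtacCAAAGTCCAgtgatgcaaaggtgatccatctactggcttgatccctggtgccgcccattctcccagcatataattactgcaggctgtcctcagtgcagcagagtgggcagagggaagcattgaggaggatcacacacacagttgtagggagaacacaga
Cyp3a16, chr5:145469674-145469973, minus strand: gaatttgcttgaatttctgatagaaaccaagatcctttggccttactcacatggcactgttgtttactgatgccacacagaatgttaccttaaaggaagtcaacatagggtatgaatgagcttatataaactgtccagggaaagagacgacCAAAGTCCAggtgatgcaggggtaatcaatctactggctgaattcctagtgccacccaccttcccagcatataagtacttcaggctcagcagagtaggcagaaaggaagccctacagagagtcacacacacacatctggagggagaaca
Cyp3a25, chr5:146009569-146009868, minus strand: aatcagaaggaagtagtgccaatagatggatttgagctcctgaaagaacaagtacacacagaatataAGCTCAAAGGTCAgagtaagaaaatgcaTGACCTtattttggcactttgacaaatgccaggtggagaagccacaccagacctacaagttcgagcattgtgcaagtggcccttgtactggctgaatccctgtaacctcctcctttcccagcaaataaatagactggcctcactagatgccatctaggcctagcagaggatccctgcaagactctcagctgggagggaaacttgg

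Nuclear receptor pairs bind a repeated core hexamer, and the spacing and orientation of the repeats are part of what separates the receptors' sites. On both strands, Cyp3a11 held a direct repeat with 4 bases between (DR4, searched as AGNTCANNNNAGGTCA) at -172 to -157 from the start site, which 10 of 32851 RefSeq promoter windows of this length hold (0.0304%). Cyp3a25, Cyp3a57 and Cyp3a59 each held a direct repeat with 1 base between (DR1, AGNTCANAGGTCA), in Cyp3a25 at -183 to -171, found in 26 windows (0.0791%). The hexamer AGGTCA, which overlaps both repeats, was in 5 of the 8 member windows and in 16.3% of all windows. The HNF4 core CAAAGTCCA was in Cyp3a11, Cyp3a16 and Cyp3a41a, against 0.475% of all windows. DR3 (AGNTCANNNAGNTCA, 0.07% of windows), an everted repeat with 6 bases between (ER6, TGAACTNNNNNNAGGTCA, 0 windows), a STAT5 site (TTCNNNGAA, 8.3%), a C/EBP site (TTGCGCAA, 0.183%) and a D-site (TTACGTAA, 0.119%) had no match in a member window. The Cyp3a13 window held none of the motifs searched. These are matches of letters in a short window, and enhancers farther away were not searched.

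The arrays served for the comparison as follows. Between 41.1% and 64.9% of 55681 probes were well above background per array. The share was 61.8% on +/+_1156 and 64.9% on -/-_N3, and at most 47.7% on the others. The median intensity was 18.7 and 29.6 units on these arrays, against 4.99 to 7.75 units on the others. The part of this array difference in the values of +/+_1156 and -/-_N3 was not tested. The 75th percentile of the signal lay between 57.5 and 103 units in Rbpj+/+ liver, below the range of 118 to 142 in Rbpj-/- liver. Levels are therefore given on a log2 scale relative to that percentile of the same array. Rbpj itself, read by its brighter probe, was 2.19-fold lower in Rbpj-/- liver (log2 fold change -1.13 ± 0.24 (SE), adjusted p = 0.0115), with no overlap between genotypes. The Y-linked Ddx3y and Eif2s3y were well above background on all 7 arrays, and 1 of 2 Xist probes was well above background on the array of +/+_1155 only, at -2.95 against -5.08 or lower on the other 6. On +/+_1155 the other Xist probe read -5.84, not above background, and Ddx3y and Eif2s3y read 2.76 and 2.71. Each of these lay within the range of the other 6 arrays. Sex is not in the labels, and whether +/+_1155 differs in sex or holds some female tissue was not tested.

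Differences between genotypes were called at an adjusted p below 0.1 (limma, Benjamini-Hochberg over all 24548 tested probes), and each gene was counted by its brightest tested probe. By this rule 2 of the 6 tested members, Cyp3a11 and Cyp3a25, were lower in Rbpj-/- liver and none was higher. Over all 18755 tested genes, 19.5% were called lower and 14.6% higher. The log2 fold changes of the 6 members ran from -0.63 to 0.25, with a median of -0.48, against a median of -0.13 over all tested genes. In whole liver, fewer cells of a type and less RNA per cell cannot be told apart. Neither call held under every way of scaling the arrays, as given with each gene.

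**Figure D1:**
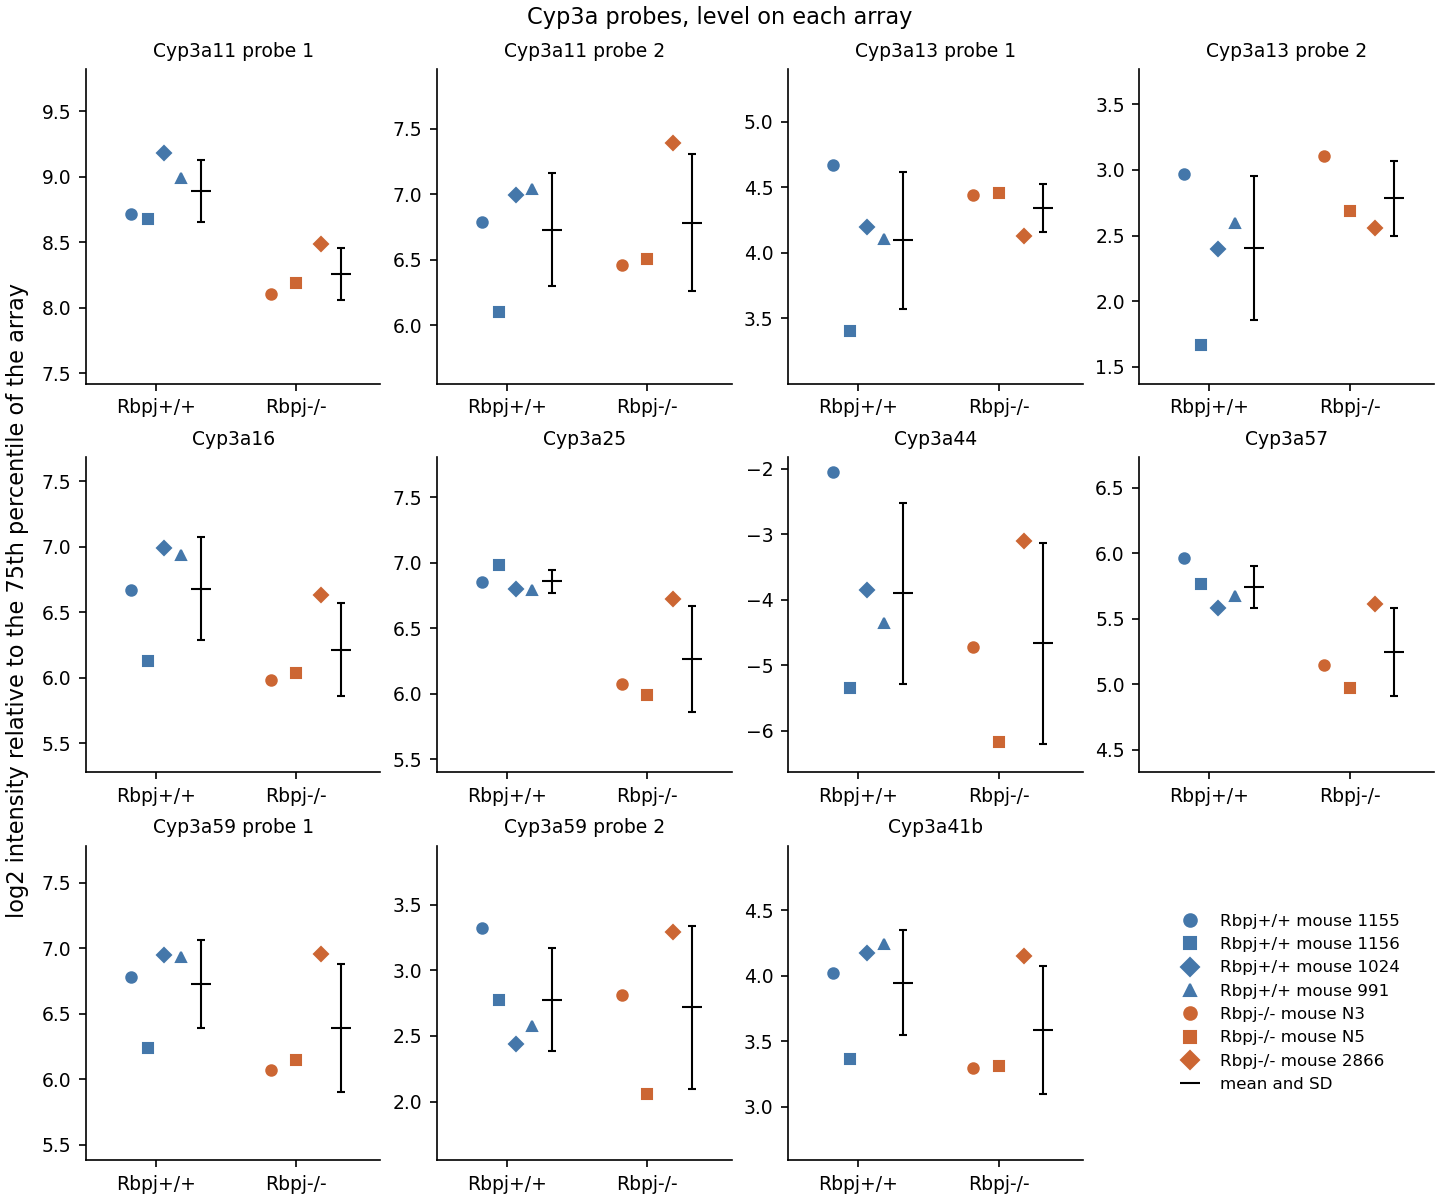
Level of each Cyp3a probe on each of the 7 arrays (points, shape by mouse; vertical axis: log2 intensity relative to the 75th percentile of that array; equal span in all panels but Cyp3a44, which has double the span), with mean and SD of the 4 Rbpj+/+ and 3 Rbpj-/- mice. The genotypes do not overlap for the first Cyp3a11 probe and for Cyp3a25, and -/-_2866 lies above the other Rbpj-/- mice in every panel but those of Cyp3a13.

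Cyp3a11 was counted by its first and brighter probe, which the array lists for Cyp3a11 alone. Its level was 8.72, 8.68, 9.18 and 8.99 in +/+_1155, +/+_1156, +/+_1024 and +/+_991, and 8.10, 8.19 and 8.49 in -/-_N3, -/-_N5 and -/-_2866. Every Rbpj-/- value was below every Rbpj+/+ value. The means were 8.89 ± 0.24 (SD, n = 4) and 8.26 ± 0.20 (SD, n = 3), a log2 fold change of -0.63 ± 0.21 (SE, adjusted p = 0.0561) or 1.55-fold lower in Rbpj-/- liver, with a 95% interval of the ratio from 0.467 to 0.893. The groups did not overlap in 36.5% of all tested genes.

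The difference in Cyp3a11 depended on how the arrays were scaled. Before scaling, the Rbpj+/+ intensities were 43240, 34990, 33330 and 37990 units and the Rbpj-/- intensities 39180, 37910 and 42320 units, and these overlapped. No spot of any array was saturated. By signal, Cyp3a11 was 101st among the 18755 tested genes, a rank that reflects the probe as well as the transcript. The 100 brightest genes had a median log2 fold change of -0.58, 89 of them were negative and 62.0% were called lower. Relative to the median of the brightest 10% of probes the log2 fold change of Cyp3a11 was -0.36 (adjusted p = 0.135), after quantile normalization it was -0.25 (adjusted p = 0.247), and in the deposited normalized table -0.24 (adjusted p = 0.262). The call was also lost without +/+_1024, +/+_991, -/-_N3 or -/-_N5, each left out singly (-0.54 to -0.60, adjusted p from 0.125 to 0.161). The part of this shift of bright probes in the Cyp3a11 difference was not tested.

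**Figure D2:**
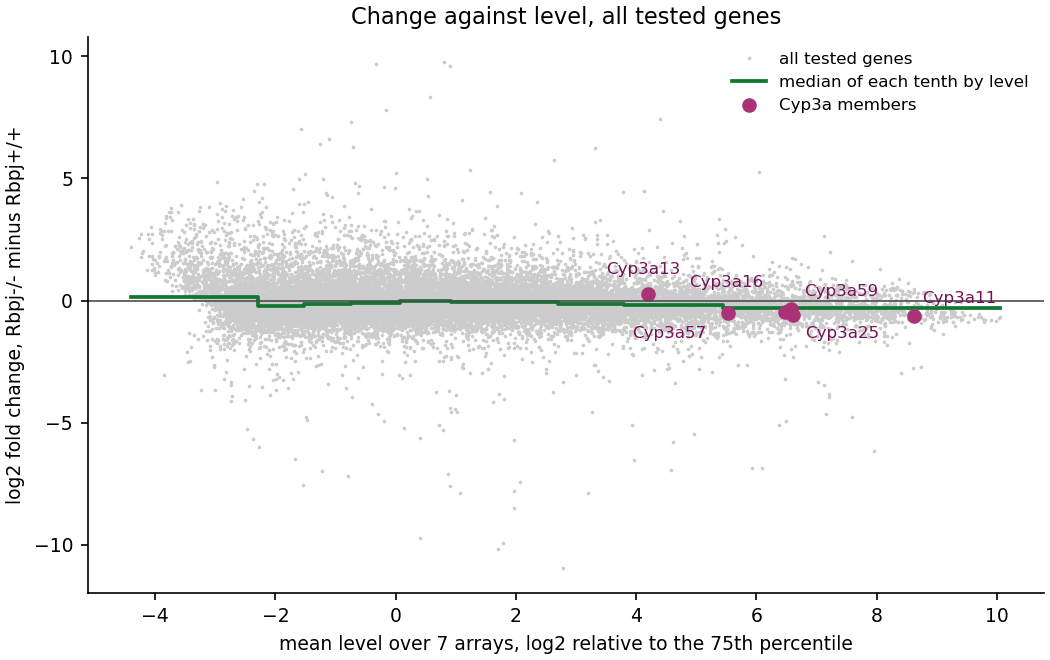
Log2 fold change (Rbpj-/- minus Rbpj+/+, vertical axis) against the mean level over the 7 arrays (log2 relative to the 75th percentile, horizontal axis) for the brightest probe of each tested gene (grey), the median of each 10% of genes by level (green steps) and the 6 tested Cyp3a members (purple). The median is -0.33 in the brightest 10%, which holds 5 of the 6 members, all of them at or below it.

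The second, shared probe of Cyp3a11 did not show this difference. It read 6.79, 6.10, 7.0 and 7.04 in the Rbpj+/+ mice and 6.46, 6.51 and 7.39 in the Rbpj-/- mice, in the order given above. The lowest value belonged to +/+_1156 and the highest to -/-_2866, so the groups overlapped. The log2 fold change was 0.05 ± 0.31 (SE, adjusted p = 0.915), and its sign turned without +/+_1156 or without -/-_2866. Within each array, the shared probe minus the first probe was -2.16 in Rbpj+/+ and -1.48 in Rbpj-/- liver on average, without overlap between genotypes (difference 0.68, exact two-sided permutation test over 35 splits, p = 0.0571, the smallest this design allows). This pair of probes was compared after its values had been seen.

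Cyp3a25 was the other member called lower. Its level was 6.85, 6.98, 6.80 and 6.79 in the Rbpj+/+ mice and 6.07, 5.99 and 6.73 in the Rbpj-/- mice. Mouse -/-_2866 lay only just under the lowest Rbpj+/+ mouse, while -/-_N3 and -/-_N5 were clearly below. The log2 fold change was -0.59 ± 0.22 (SE, adjusted p = 0.0837), or 1.51-fold lower. The call was lost when any single mouse other than -/-_2866 was left out (adjusted p from 0.115 to 0.262). It was also lost after quantile normalization (-0.32, adjusted p = 0.378) and after normexp background correction (-0.31, adjusted p = 0.246). The percentile over probes detected on all arrays (adjusted p = 0.14) and the deposited normalized table (adjusted p = 0.384) did not keep it either. Nor did scaling on the brightest probes (adjusted p = 0.375) or the lack of a filter on dim probes (adjusted p = 0.34). Without any scaling, the sign for Cyp3a25 turned (0.13). In promoter sequence, Cyp3a59 was closest to Cyp3a25 (96.0% identity), and Cyp3a57 of the same group was less close (90.3%). Cyp3a57 read 5.96, 5.76, 5.58 and 5.67 in Rbpj+/+ and 5.15, 4.97 and 5.61 in Rbpj-/- liver. Here -/-_2866 lay within the Rbpj+/+ range, and the log2 fold change of -0.50 ± 0.21 (SE) did not pass (adjusted p = 0.122). It passed without -/-_2866 (-0.68, adjusted p = 0.0656) and with limma-trend (adjusted p = 0.0925).

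Cyp3a59, the third gene of this promoter group, had 2 probes that did not move together. The first read 6.78, 6.24, 6.95 and 6.93 in the Rbpj+/+ mice and 6.07, 6.15 and 6.95 in the Rbpj-/- mice, a log2 fold change of -0.34 ± 0.28 (SE, adjusted p = 0.409). The second, dimmer probe read 3.33, 2.77, 2.44 and 2.57 in Rbpj+/+ and 2.81, 2.06 and 3.29 in Rbpj-/- liver, with a log2 fold change of -0.06 ± 0.33 (SE, adjusted p = 0.908). Mouse +/+_1156 was the lowest Rbpj+/+ mouse on the first probe and +/+_1024 on the second. The sign for the second probe turned without +/+_1155 or without -/-_N5.

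Cyp3a16, the fetal and neonatal form, read 6.67, 6.13, 6.99 and 6.93 in Rbpj+/+ and 5.98, 6.04 and 6.63 in Rbpj-/- liver. The array of +/+_1156, with the raised median intensity, again lay with the Rbpj-/- arrays. The log2 fold change was -0.47 ± 0.27 (SE, adjusted p = 0.239), and it passed without +/+_1156 (-0.65, adjusted p = 0.074) and with array weights (-0.59, adjusted p = 0.0774). The Cyp3a41b probe, which also lists the Cyp3a41a transcript, read 4.02, 3.37, 4.17 and 4.24 in Rbpj+/+ and 3.30, 3.31 and 4.15 in Rbpj-/- liver. As for Cyp3a16, +/+_1156 was the lowest Rbpj+/+ mouse and -/-_2866 the highest Rbpj-/- mouse, and the log2 fold change was -0.36 ± 0.30 (SE, adjusted p = 0.399).

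Cyp3a44 was well above background on 1 of 4 Rbpj+/+ arrays, +/+_1155 at 24.6 intensity units, and on 1 of 3 Rbpj-/- arrays, -/-_2866 at 13.8. On the other 5 arrays it read 1.8 to 5.4 units. No fold change is given for it. The array of +/+_1155 is also the one on which an Xist probe was above background. On -/-_2866 the Xist probes read -5.71 and -6.01, and neither was above background. A link between Cyp3a44 and Xist was not tested.

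Cyp3a13, the member outside the cluster, was the only tested member with a positive log2 fold change, and neither of its probes passed. The first read 4.67, 3.41, 4.20 and 4.10 in Rbpj+/+ and 4.44, 4.45 and 4.13 in Rbpj-/- liver (0.25 ± 0.29 (SE), adjusted p = 0.564). The second read 2.97, 1.67, 2.39 and 2.59 against 3.1, 2.69 and 2.56 (0.38 ± 0.31 (SE), adjusted p = 0.398). Mouse +/+_1156 was the lowest of all 7 mice on both probes, and without it the log2 fold changes were 0.02 and 0.13, against 0.44 and 0.57 without +/+_1155. The 95% interval of the ratio ran from 0.751 to 1.87 for the first probe, so that a change within that range could not be told from none with 7 arrays.

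**Figure D3:**
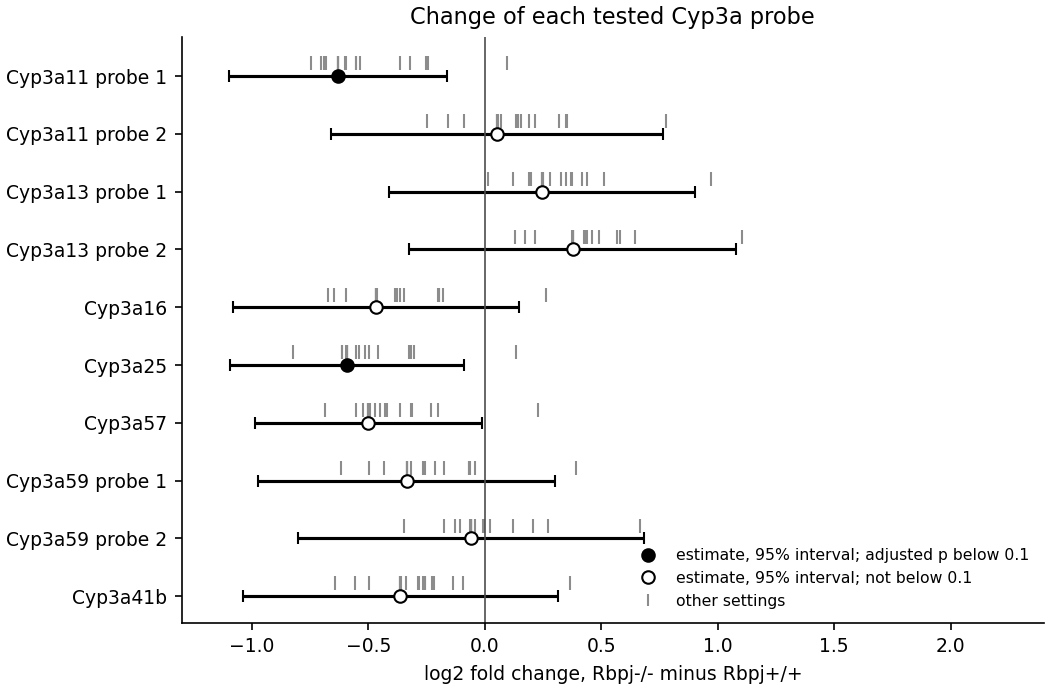
Log2 fold change (Rbpj-/- minus Rbpj+/+, horizontal axis) of each tested Cyp3a probe with its 95% interval (filled circles: adjusted p below 0.1; open circles: not below) and the values under the other settings (grey ticks). The first Cyp3a11 probe and Cyp3a25 are the filled circles, at -0.63 and -0.59, and the rightmost tick of most rows is the value without any scaling of the arrays.

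Tested one at a time, no member probe reached an exact two-sided permutation p below 0.0571, the smallest value that 4 against 3 arrays allow, which the first Cyp3a11 probe and Cyp3a25 both had. The members were also set against Cyp3a11 within each array, which removes any scaling shared by all probes. In 5 pairs of tested members, the change of the other member minus the change of Cyp3a11 was 0.88 for Cyp3a13, 0.17 for Cyp3a16, 0.04 for Cyp3a25, 0.13 for Cyp3a57 and 0.30 for Cyp3a59. None of the pairs separated the genotypes (exact two-sided permutation p from 0.114 to 0.914, adjusted over the 5 pairs 0.572 or above). The largest, Cyp3a13, read -4.05, -5.27, -4.98 and -4.88 relative to Cyp3a11 in the Rbpj+/+ mice and -3.66, -3.74 and -4.35 in the Rbpj-/- mice, with +/+_1155 between the Rbpj-/- values.

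The probes could also be sorted by how alike they were over the 7 arrays, measured as the root mean square difference of log2 values after centring each probe on its own mean. The first Cyp3a59 probe and Cyp3a41b were closest, at 0.05, followed by Cyp3a16 with Cyp3a41b (0.10) and with the first Cyp3a59 probe (0.11). Cyp3a25 and Cyp3a57 came next at 0.12, and the 2 Cyp3a13 probes followed at 0.16. By contrast, the 2 Cyp3a59 probes differed by 0.45 and the 2 Cyp3a11 probes by 0.43. The first Cyp3a59 probe was thus closer to probes named for other genes than to the second probe of its own. The 7 points share slide and scaling, and these values are a description.

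**Figure D4:**
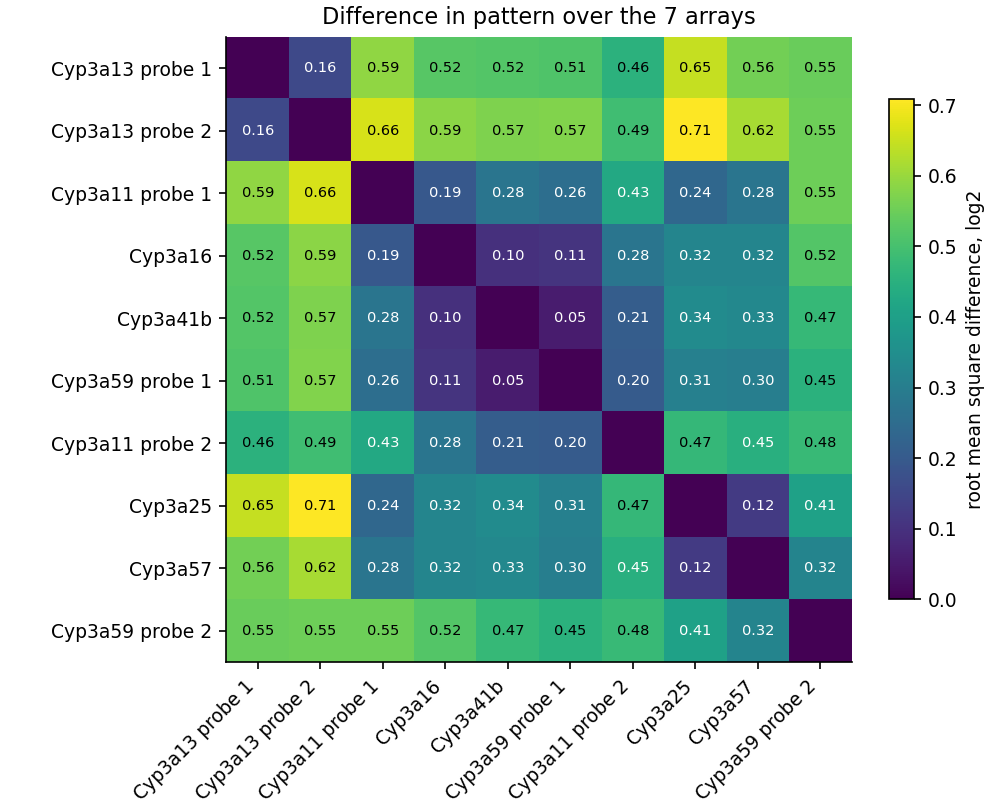
Root mean square difference between each pair of tested Cyp3a probes over the 7 arrays (log2, after centring each probe on its mean; both axes list the probes, and darker cells are more alike). The first Cyp3a59 probe, Cyp3a41b and Cyp3a16 form a dark block at 0.05 to 0.11, Cyp3a25 and Cyp3a57 pair at 0.12, and the Cyp3a13 probes pair at 0.16 and stand apart from the rest.

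Among all 18754 other tested genes, the patterns nearest to that of Cyp3a11 were those of Cnnm3, Tshz1, Chchd10 and Eif4b and of 1 probe without a gene symbol, with root mean square differences of 0.04 to 0.05. The other members ranked from 1404th (Cyp3a16, 0.19) to 12476th (Cyp3a13, 0.59).

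The regulators of the family were measured on the same arrays. Of 20 listed genes, 18 were tested, and 7 were called lower and none higher, with a median log2 fold change of -0.52. Among all tested genes the shares were 19.5% lower and 14.6% higher. PXR (Nr1i2) averaged 2.74 ± 0.62 (SD) over the 4 Rbpj+/+ mice and 2.75 ± 0.39 (SD) over the 3 Rbpj-/- mice and did not pass (adjusted p = 0.985). CAR (Nr1i3) had a log2 fold change of -0.47 ± 0.25 (SE, adjusted p = 0.191), and its partner Rxra was lower without overlap (log2 fold change -0.53 ± 0.17 (SE), adjusted p = 0.054). The bile acid receptor FXR (Nr1h4) was lower (-1.52 ± 0.23 (SE), adjusted p = 0.00321), as was its target Nr0b2, the corepressor SHP (-0.92 ± 0.29 (SE), adjusted p = 0.0474). The glucocorticoid receptor Nr3c1 (-0.67), the fatty acid receptor Ppara (-1.40), Nr5a2 (-0.70) and the hepatocyte factor Cebpa (-1.01) were the other 4 called lower. The genotypes overlapped for Cebpa, where -/-_2866 read 4.95, within the Rbpj+/+ range of 4.63 to 5.07. They also overlapped for Nr0b2, where -/-_N3 (0.85) lay above +/+_1156 (0.82). Hnf4a, a main activator of hepatocyte genes, had a log2 fold change of -0.32 (adjusted p = 0.216), and its sign turned after quantile normalization (0.04). Of the 18, Nr1h4 was called under every setting tried, and Ppara under all but the one without scaling. The calls of Rxra, Nr3c1, Cebpa, Nr0b2 and Nr5a2 were lost when -/-_N5 was left out (adjusted p from 0.105 to 0.279). Other single mice whose removal ended a call were +/+_1024 (Rxra, Cebpa, Nr0b2 and Nr5a2), +/+_991 (Rxra, Cebpa and Nr0b2), -/-_N3 (Rxra, Nr3c1, Cebpa and Nr5a2), +/+_1155 (Cebpa) and -/-_2866 (Nr0b2), with adjusted p from 0.103 to 0.243. The Rxra call was further lost after normexp background correction (-0.27, adjusted p = 0.109) and with the percentile over probes detected on all arrays (-0.45, adjusted p = 0.122). That of Cebpa was lost under both of these (adjusted p = 0.103 and 0.114), after quantile normalization (adjusted p = 0.137) and in the deposited normalized table (adjusted p = 0.139). Relative to the brightest 10% of probes, Rxra, Cebpa, Nr0b2 and Nr5a2 did not pass (adjusted p from 0.115 to 0.392).

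P450 enzymes need electrons and haem. The electron donor Por was higher in Rbpj-/- liver by 0.81 ± 0.20 (SE, adjusted p = 0.0232) and Alas1, the first enzyme of haem synthesis, by 1.35 ± 0.45 (SE, adjusted p = 0.0599). The cytochrome b5 gene Cyb5a, which helps some P450 reactions, was lower (-0.58 ± 0.19 (SE), adjusted p = 0.0546). In all, 2 of 9 genes of this group were higher and 1 was lower, with a median of -0.17. Over all tested genes 14.6% were called higher and 19.5% lower, with a median of -0.13. The Alas1 call was lost without -/-_N3 or -/-_N5 (adjusted p = 0.139 and 0.173), and that of Cyb5a without any one of +/+_1024, +/+_991, -/-_N3, -/-_N5 and -/-_2866 (adjusted p from 0.102 to 0.139). Cyb5a also did not pass after normexp background correction (-0.28, adjusted p = 0.104), after quantile normalization (-0.21, adjusted p = 0.249), in the deposited normalized table (-0.20, adjusted p = 0.273) or relative to the brightest 10% of probes (-0.31, adjusted p = 0.154).

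Other genes that PXR and CAR are known to drive changed in both directions. Of 17 listed, 15 were tested, 7 were higher and 2 lower, with a median of 0.80, against medians of -0.48 for the members and -0.13 for all genes. Of all tested genes, 14.6% were called higher and 19.5% lower. The drug exporters Abcb1a, Abcb1b and Abcc4 were higher by 3.06 ± 0.43, 1.54 ± 0.47 and 2.11 ± 0.31 (SE). Akr1b7, an aldo-keto reductase, was higher by 4.66 ± 0.54 (SE, adjusted p = 0.00128) and the glutathione transferase Gsta2 by 3.25 ± 0.70 (SE, adjusted p = 0.0132). In Rbpj+/+ liver Abcb1a, Abcc4 and Akr1b7 were dim, with means of -1.94, -1.55 and -2.18. After normexp background correction their log2 fold changes were smaller, at 1.56, 1.11 and 2.78, and all were still called. Cyp2b10, the classical CAR target, averaged 1.35 ± 0.76 (SD) over the Rbpj+/+ mice and 3.25 ± 1.71 (SD) over the Rbpj-/- mice without overlap (1.90 ± 0.72 (SE), adjusted p = 0.0881), and its call was lost without -/-_2866 (0.92, adjusted p = 0.19), +/+_1155, +/+_1156 or +/+_1024, after quantile normalization (adjusted p = 0.112), in the deposited normalized table (adjusted p = 0.113) and with array weights (adjusted p = 0.102). Gadd45b was higher by 1.44. Cyp2c29 and the carboxylesterase Ces2a were lower, with log2 fold changes of -1.56 ± 0.39 and -1.70 ± 0.43 (SE). In Rbpj+/+ liver the Abcb1b probe was measured on 3 arrays, the spot of +/+_991 having been left out, and only 2 of these put it well above background. Its log2 fold change was 0.13 after normexp background correction (adjusted p = 0.609), and its direction turned when compromised spots were kept (-0.48) and in the deposited normalized table (-0.23), and its call was lost without +/+_1024, -/-_N3 or -/-_N5 (adjusted p from 0.138 to 0.154).

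**Figure D5:**
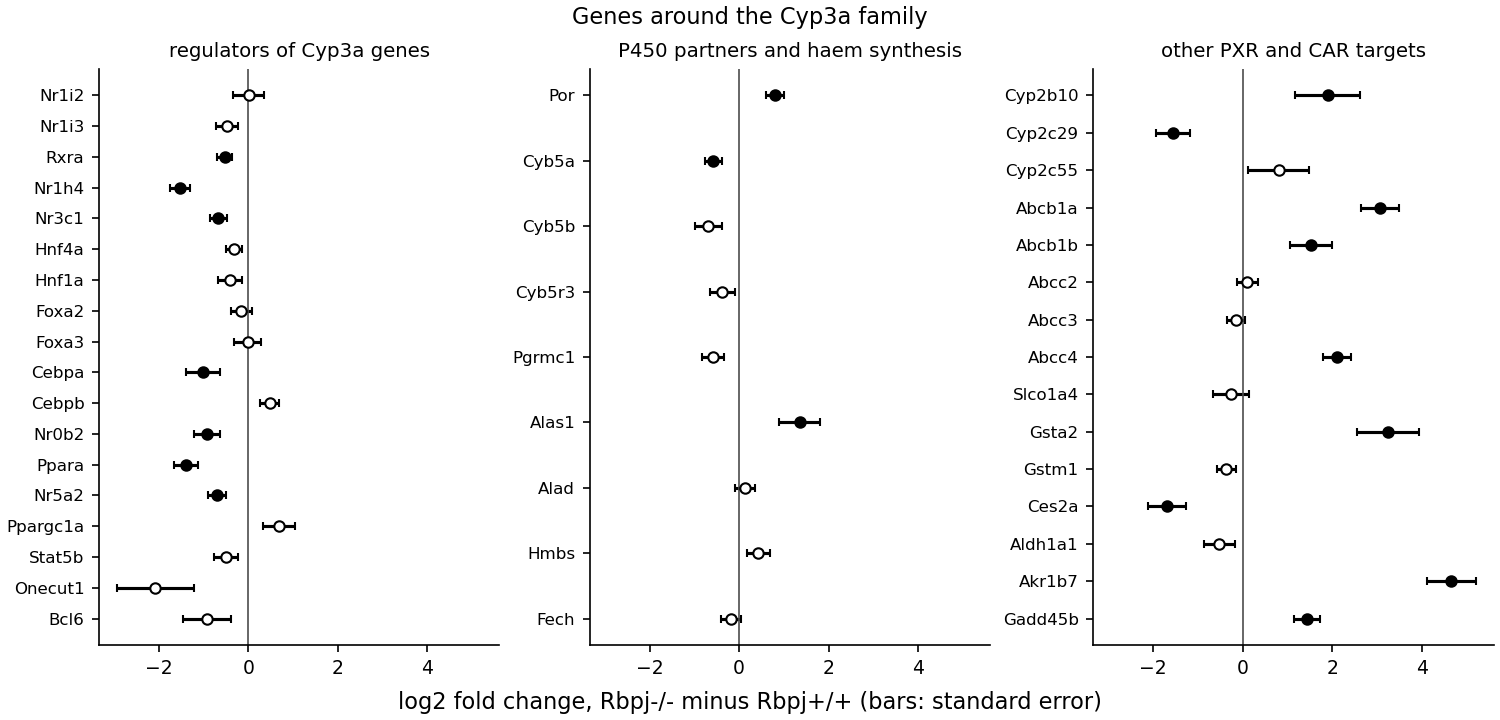
Log2 fold change (Rbpj-/- minus Rbpj+/+, horizontal axis, bars: standard error) of the tested genes of 3 groups, regulators of Cyp3a genes, P450 partners with haem synthesis, and other PXR and CAR targets (filled: adjusted p below 0.1; open: not below). Filled circles lie only left of 0 among the regulators, and 7 of the 9 filled circles lie right of 0 among the targets, up to 4.66 for Akr1b7.

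The log2 fold changes of the Cyp3a members were smaller in size than those of most other P450 genes, which is given as a description. Of 68 other Cyp genes tested, 35 were called lower and 7 higher, with a median log2 fold change of -0.96. Over all tested genes 19.5% were called lower and 14.6% higher. In 51 of the 68 other Cyp genes the log2 fold change was larger in size than that of any tested Cyp3a member. The same was true of 35.6% of all tested genes.

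Markers of the liver's cell types moved with genotype as well. The called shares over all tested genes were 19.5% lower and 14.6% higher. Of 10 hepatocyte markers, 6 were lower and none higher (median -0.68), among them Alb (-0.78) and Apoc3 (-0.92). The mean level of these markers ran from 7.84 to 8.36 in Rbpj+/+ and from 7.66 to 7.82 in Rbpj-/- liver. Among the 100 brightest of all tested genes, 62.0% were called lower (median -0.58). The part of that shift of bright probes in the hepatocyte markers was not tested. Of 8 pericentral markers, genes of the hepatocytes around the central vein where Cyp3a enzymes are richest, 4 were lower (median -0.89), among them Glul (-1.38) and Cyp2e1 (-1.20). Of 5 macrophage markers, 4 were higher (median 1.53), with mean levels from 2.09 to 2.66 in Rbpj+/+ and from 3.84 to 4.00 in Rbpj-/- liver. Of 5 stellate cell markers 3 were higher, and of 6 tested cholangiocyte markers 2 (Sox9 and Spp1). Of 4 endothelial markers none was higher and Kdr was lower (-1.19). Pecam1 (0.42), Stab2 (0.48) and Lyve1 (0.13) had positive log2 fold changes that did not pass, and the median was 0.27. Of 3 tested lymphocyte and neutrophil markers, S100a8 was higher and Cd3e and Cd79a were lower. Of 2 tested erythroid markers, Alas2 was lower (-2.13) and Hbb-b1 did not pass (0.36). The part of these shifts in the Cyp3a levels was not tested.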

How the data were processed

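The deposited scanner files hold 1-colour Cy3 intensity values which, per the file headers, Agilent Feature Extraction 10.7.3.1 had background-subtracted and detrended. From the processed intensity, spots with outlier flags were left out (1186), spots of a probe were averaged as log2 values, and each array was shifted by its own 75th percentile, the percentile the methods name. A probe was tested if every array of 1 genotype or of both had it flagged as positive, significant and well above background. limma 3.58.1 (R 4.3.3) compared the 3 Rbpj-/- with the 4 Rbpj+/+ arrays, with Benjamini-Hochberg adjustment over all tested probes and a threshold of 0.1; the fit was tested on simulated data. Single values were compared by exact permutation (scipy 1.17.1). Arrays have no read depth, and their number limits the precision.

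The deposited table of log2 values, the authors' processed values, has column medians of 0 (-0.004 for +/+_1156). Every probe has a median of 0 over the 7 arrays, and each column followed quantile-normalized, probe-centred scanner values (r of 0.9998 or above, SD of the difference 0.008 or below) more closely than those shifted by the 75th percentile (r from 0.725 to 0.957). Scale and direction were thus settled by comparison, and the table was used as an alternative.

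The genes named were all members, the lists fixed with them, and the 5 patterns nearest to Cyp3a11; Cyp3a44, near background, was left out of the pairs and of this ranking. Names came from accessions (28331 probes), symbols (2209) or synonyms (174) of the RefSeq table for GRCm38.p6, and otherwise stayed those of the array (24967). Ugt1a1, Gsta1 and Ly6g had no probe of that name, and Vdr, Cux2 and Epcam were too dim to test. Members and lists were chosen with earlier results of these data known, so their calls are no independent support. Each sample has its own code in the labels and was taken as 1 mouse. Alternatives were normexp background correction (offset 50), quantile normalization, another percentile, other filters, compromised spots kept, limma-trend, array weights, the mean of a gene's probes, a threshold of 0.05, the deposited table, and leaving out each mouse.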

Additional observations from a re-analysis of the deposited data

How the results depend on the processing

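The number of Cyp3a members called lower, 2 of 6, moved with the processing. It was 1 after normexp background correction, with the percentile taken over probes detected on all arrays, and with the mean of a gene's probes. It was 0 after quantile normalization, without a filter on dim probes, in the deposited normalized table, and at a threshold of 0.05. Leaving out each mouse gave 0 to 3, with 0 without +/+_1024, +/+_991, -/-_N3 or -/-_N5, 1 without +/+_1155 and 3 without -/-_2866. Limma-trend and array weights each gave 3. No member was called higher under these settings. Against the -0.13 of all tested genes, quantile normalization moved the median by 0.09 and the lack of a filter by -0.14. All tested genes split into 19.5% lower and 14.6% higher, against 15.2% and 16.6% after quantile normalization and 1.88% and 2.71% without the filter.

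Among directions, the shared Cyp3a11 probe turned with array weights (-0.089), without +/+_1156 (-0.16) and without -/-_2866 (-0.25), and the second Cyp3a59 probe with the percentile over detected probes (0.021), without +/+_1155 (0.12) and without -/-_N5 (0.27); leaving out each mouse gave -0.25 to 0.22 and -0.35 to 0.27. Abcb1b turned with compromised spots kept (-0.48) and in the deposited table (-0.23), and Hnf4a after quantile normalization (0.040) and in the deposited table (0.044). The causes were not tested.

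2 settings were chosen after seeing the data. Scaled on the brightest 10% of probes, 0 members were called lower and 0 higher, the median of all genes moved by 0.27, and the second Cyp3a59 probe turned (0.21). Without any scaling, 0 were called lower and 1 higher (Cyp3a13), and the median of all genes moved by 0.73. Values that turned sign were 0.10 for the first Cyp3a11 probe, 0.26 for Cyp3a16, 0.13 for Cyp3a25, 0.23 for Cyp3a57, 0.39 and 0.67 for the Cyp3a59 probes, 0.36 for Cyp3a41b, 0.20 for Rxra, 0.059 for Nr3c1, 0.027 for Nr5a2, 0.15 for Cyb5a, 0.25 for Nr1i3 and 0.41 for Hnf4a.

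The differences between the changes of the other tested members and of Cyp3a11 were recomputed after normexp and quantile normalization and without each mouse. They stayed within 1 SD of their value, but those near 0 turned sign: Cyp3a25 ran from -0.080 to 0.15 and Cyp3a57 from -0.062 to 0.26. Without a filter on dim probes, the calls of Rxra, Nr3c1, Cebpa, Nr0b2, Nr5a2, Por, Cyb5a, Alas1, Cyp2b10, Cyp2c29, Abcb1b, Gsta2 and Ces2a were lost. No paired analysis was possible because the mice of the genotypes share no number.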
